A study of Homo sapiens with 27 samples.

Results

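In U2OS cells, a human osteosarcoma line, nuclear poly(A)+ RNA was compared between cultures that carried the TPR A shRNA and cultures that carried a control shRNA. TPR is a large coiled-coil nucleoporin of the nuclear basket, the fibrous structure on the nucleoplasmic face of the nuclear pore. The set comprised 6 of the 27 libraries of the series, chosen by their titles, with 3 nuclear libraries for each shRNA. Of 34464 genes in the deposited table, 14611 had a mean above 1 FPKM over all libraries, lay outside the mitochondrial genome and were tested. Cells had been transduced with lentiviral shRNA for 5 days and selected with puromycin, control cultures included. Each culture was also sampled as a cytoplasmic/ER and as a total fraction, and a second shRNA, TPR D, was handled in the same way. A single cell line was used, and both the control and the TPR shRNA cells had undergone transduction and selection.

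Spliced mRNAs leave the nucleus through the pore after they are packed with the TREX complex and bound by the export receptor NXF1-NXT1, and the basket is among the first pore structures that they meet. The steady-state level of an RNA in the nuclear fraction reflects its synthesis, processing, decay and export together. In bulk libraries of this kind, fewer cells of a type and less RNA per cell cannot be told apart.

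One of the 6 libraries went against its label. RNA of the mitochondrial genome made up 21.8% of the FPKM in the library labelled Control replicate 2, against 0.944% to 2.42% in the other 5, and 15.8% to 24.7% in 8 of the 9 total libraries. Over the 14611 genes it correlated better with the mean of the total libraries (r = 0.977) than with that of the nuclear ones (r = 0.944). The total library of the same culture showed the reverse, with a mitochondrial share of 0.738% and correlations of 0.940 with total and 0.973 with nuclear libraries. The TPR A replicate 1 library was also nearly as close to the total (r = 0.970) as to the nuclear libraries (r = 0.974). All values are therefore given under the labels first, and counts, list medians and most named genes are repeated without Control replicate 2, that is without the 3 libraries of that culture. One FPKM on 1 kb of transcript stood for an estimated 45.4 to 49.1 reads in the control and 44.7 to 53.2 reads in the TPR A libraries. Nothing in the labels says that replicates were grown on separate days, so p-values measure the spread between samples of this series. The SE and p-values of limma rest on a spread pooled over all 27 libraries in 9 groups, not over the 6 nuclear ones. Fractions of the same culture were counted there as separate samples. The 6 nuclear libraries alone gave far fewer calls, as given below. The column names of the deposited values set replicate 1 apart, since those of replicates 2 and 3 share a tag and a numbering that replicate 1 lacks. What this stands for is not given. Of 9 osteosarcoma and mesenchymal markers listed for the line, 8 were among the genes tested. VIM, which encodes vimentin, stood at 1103 to 2567 normalised FPKM in the 6 libraries.

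The targeted mRNA was measured first. TPR (chr1:186280784-186344825 on the minus strand, GRCh37) stood at 27.1, 31.6 and 29.4 normalised FPKM in the control libraries and at 2.40, 1.61 and 2.28 in the TPR A libraries. The groups did not overlap, and the TPR A mean was 7.14% of the control mean. The change on the log2(FPKM + 0.1) scale was -3.76 ± 0.36 (SE, n = 3 and 3), with an adjusted p of 6.86e-06 in limma. An exact permutation test of this gene alone gave p = 0.10, the smallest that 3 against 3 samples allow (2-sided). With TPR D the nuclear change was -3.56. TPR kept its call whichever culture was left out, with a log2 change between -3.87 and -3.59.

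Across all genes, 84 were higher and 48 were lower in nuclear RNA with TPR A at an adjusted p of 0.05 in limma, which is 0.575% and 0.329% of the 14611 genes tested. With upper-quartile scaling in place of median-of-ratios factors the split was 95 higher and 34 lower. The groups did not overlap in any of the 132 called genes, while over all genes the 3 TPR A libraries lay above the 3 control libraries in 8.16% and below them in 9.01%. The called genes ran from 0.75 to 4.09 on the log2 scale among the higher ones, with a median of 1.49. Among the lower ones they ran from -0.65 to -3.76, with a median of -1.22. All 48 lower genes and 77 of the 84 higher genes were protein-coding, and 2 higher genes were lncRNAs. The higher genes were of low level in control cells, with a median of 3.96 normalised FPKM against 13.5 for the lower genes and 12.2 for all genes. The calls used these same control values, and the minimum level counted the TPR A libraries. A lower control level of the higher genes is therefore built in, at least in part.

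**Figure D1:**
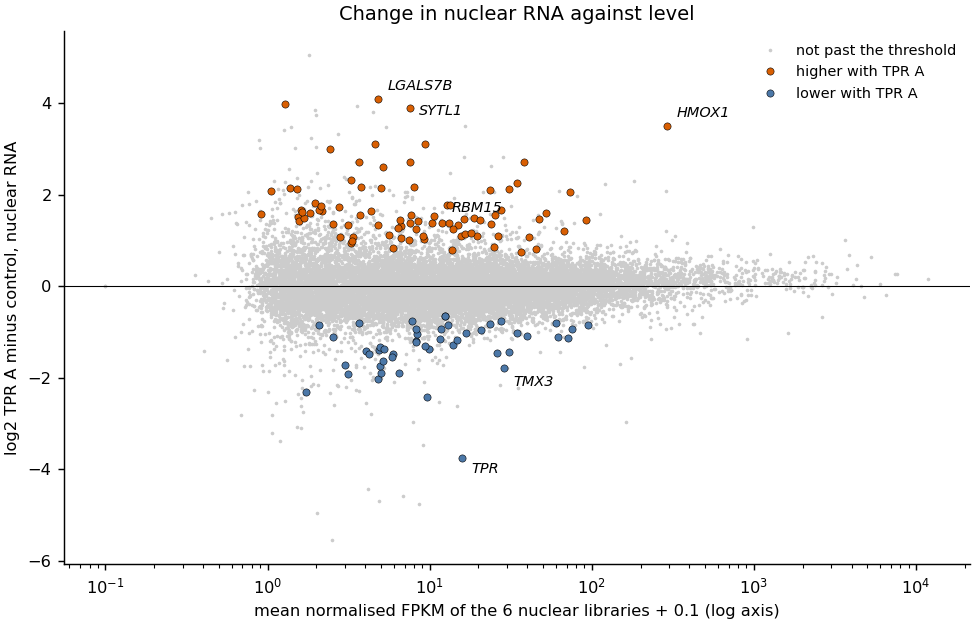
The log2 change in nuclear RNA (TPR A minus control) is plotted against the mean normalised FPKM of the 6 nuclear libraries on a log axis, 1 point for each gene tested. The 84 orange points are genes past the threshold that were higher and the 48 blue points those that were lower, and TPR, at -3.76, is the lowest of the blue points.

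Without Control replicate 2 the same model called 39 higher and 34 lower genes, 0.267% and 0.233% of those tested. Of these 73 genes, 56 were also called with all libraries, 35 of them higher and 21 lower, and 17 were not. In 61 of the 84 higher genes the library labelled Control replicate 2 was the lowest of the 3 controls, a place it had in 40.4% of all genes. In the 48 lower genes it was the highest control in 20 and the lowest in 16. Of the 132 calls with all libraries, 76 did not pass the threshold once that culture was out, and none of them turned its direction. The counts also depended on other cultures, with 9 higher and 5 lower genes called once TPR A replicate 2 was left out. Leaving out Control replicate 1 gave 35 and 8, TPR A replicate 3 gave 31 and 16, and TPR A replicate 1 gave 47 and 28, while Control replicate 3 gave 119 and 51. Called whichever culture was left out were 6 higher genes (HMOX1, RBM15, LCTL, H2AC6, H2BC5 and the unnamed ENSG00000227136) and 4 lower genes (TPR, TMEM71, MROH6 and TSPYL4). A model of the 6 libraries alone, with its own estimate of the spread, called 3 genes (TPR, ENSG00000242375 and ENSG00000259760), so that of these 10 genes TPR was the only one called in it. ENSG00000227136 stood at 0.115, 0.589 and 0.883 normalised FPKM in control and at 4.02, 3.63 and 4.83 in TPR A libraries. With TPR D it was at 0.442, 0.434 and 0.239, so it may have passed the minimum level only through the TPR A cultures.

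**Figure D2:**
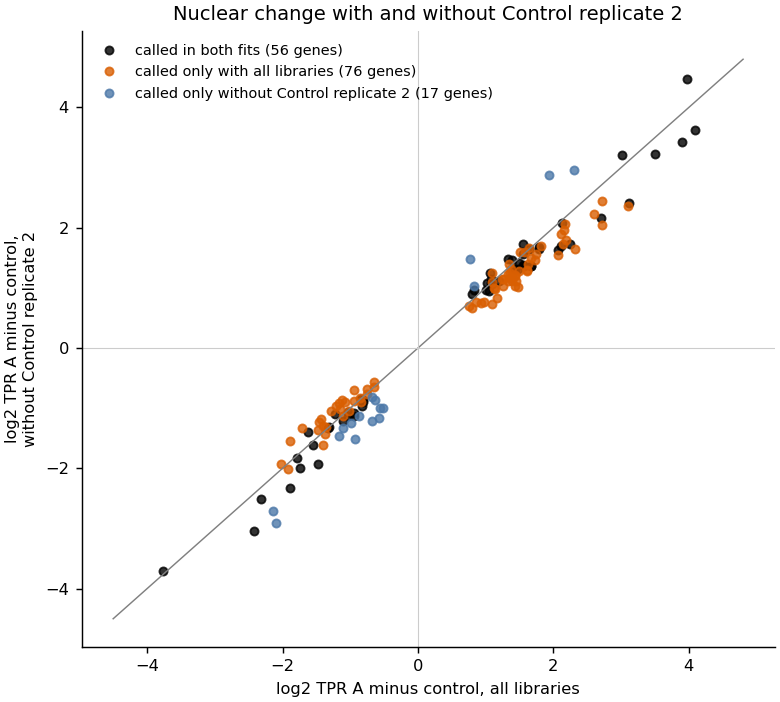
Each point is 1 of the 149 genes called in at least 1 of 2 fits, with the log2 nuclear change from all libraries on the horizontal axis and that without Control replicate 2 on the vertical axis. The 56 black genes passed the threshold in both fits, 76 orange genes only with all libraries and 17 blue genes only without that culture, and all lie on the same side of 0 on both axes.

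Of the genes that were higher, HMOX1 had the highest level in TPR A libraries. It encodes the inducible heme oxygenase, which opens the heme ring and releases iron. HMOX1 (chr22:35776354-35790207, plus strand) stood at 45.6, 28.7 and 57.8 normalised FPKM in control and at 245, 546 and 829 in TPR A libraries. Each TPR A library lay far above the highest control. The mean rose from 44.1 ± 14.7 to 540.0 ± 292 (SD, n = 3 and 3), a log2 change of 3.50 ± 0.36 (SE) with an adjusted p of 1.35e-05 in limma, and of 3.22 without Control replicate 2 (adjusted p = 0.000307 in limma). Among 15 targets of NRF2, the transcription factor of the oxidative stress response, HMOX1 was the only one past the threshold. The median of that list was -0.09, beside -0.01 over all genes, and 0.07 without Control replicate 2. FTH1, which encodes the heavy chain of ferritin, had 624, 1382 and 608 normalised FPKM in control and 1248, 1344 and 1029 in TPR A libraries, with an adjusted p of 0.552 in limma. Its groups overlapped only through Control replicate 2, without which the log2 change went from 0.57 to 0.96 (adjusted p = 0.101).

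RBM15 encodes an RNA-binding protein that takes part in RNA methylation and has been tied to mRNA export. Its level was 6.62, 7.22 and 5.64 normalised FPKM in control and 19, 18.8 and 14 in TPR A libraries. The groups lay well apart, and the log2 change was 1.39 ± 0.21 (SE, adjusted p = 0.00237 in limma). RBM15 was the only member called of 26 mRNA export factors. Of the other 25, CHTOP, a subunit that joins TREX, came closest, with 94.5, 69.6 and 117 in control and 139, 172 and 153 in TPR A libraries (adjusted p = 0.246 in limma). The helicase gene DDX39B and the adaptor gene ALYREF overlapped between the groups.

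LCTL, a gene named after its values were seen, had levels of 6.74, 5.05 and 5.83 in control and 20.3, 24.1 and 17.2 normalised FPKM in TPR A libraries. It encodes a protein of the lactase family. Its log2 change was 1.79 ± 0.21 (SE, adjusted p = 9.83e-05 in limma). JUN, an immediate-early gene and subunit of AP-1, rose from 44, 36 and 43.2 to 87, 101 and 95.3, a log2 change of 1.20 ± 0.24 (SE, adjusted p = 0.0150 in limma). JUN was the only one of 21 immediate-early genes called. FOS overlapped between the groups, with 21.7, 8.86 and 4.3 in control and 12.1, 3.3 and 18.8 in TPR A libraries. The JUN call was kept without Control replicate 2 (adjusted p = 0.0190) and without Control replicate 3, and was lost without any of the other 4 cultures, with an adjusted p of 0.0544 to 0.163.

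LGALS7B, SYTL1, FOLR1 and ODAPH were, like HMOX1, among the higher genes with the largest log2 changes, and the first 3 were of low level in each control library. LGALS7B, a galectin gene of stratified epithelia, had 0.357, 0.170 and 1.03 normalised FPKM in control and 6.59, 10.0 and 10.1 in TPR A libraries (log2 change 4.09 ± 0.71, SE). Reads of LGALS7B may belong in part to its near-identical copy LGALS7, so its value is uncertain. SYTL1, a Rab effector of vesicle traffic, had 2.24, 0.351 and 0.530 in control and 8.0, 21.1 and 12.7 in TPR A libraries (log2 change 3.90 ± 0.68, SE). The same held for FOLR1, the gene of a folate receptor, with 1.5, 0.60 and 5.6 against 16.9, 17.8 and 13.3 normalised FPKM. In ODAPH, which encodes a protein of the enamel matrix, the values were 15.1, 4.44 and 13.3 in control and 48.8, 83.0 and 63.2 in TPR A libraries. Control replicate 2 was the lowest library in each of these 4 genes. All 4 were called with all libraries (adjusted p = 0.00647 to 0.00730 in limma) and without Control replicate 2 (adjusted p = 0.00501 to 0.0429). Without TPR A replicate 2 each lost its call, at an adjusted p of 0.0677 to 0.0813, and LGALS7B did so also without TPR A replicate 3 (0.0504).

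HSD17B3, a steroid dehydrogenase gene, IL2RG, the common cytokine receptor chain, EPN3, an endocytic adaptor gene, and SPINK6, a protease inhibitor gene, rose by 2.31 to 3.10 on the log2 scale with all libraries. None of the 4 passed the threshold without Control replicate 2, where the adjusted p was 0.0631 for HSD17B3, 0.159 for IL2RG, 0.156 for EPN3 and 0.151 for SPINK6. All 4 also lost their calls without TPR A replicate 2 (0.0677 to 0.208), among other cultures. IGFL3 and DHRS2 rose by 2.25 and 2.13 and were called in both fits. IGFL3 lost its call without TPR A replicate 1 (adjusted p = 0.0676) or 2 (0.105), and DHRS2 without TPR A replicate 2 (0.109). RUNX1, a transcription factor gene, had 25.5, 26.1 and 26.8 in control and 49, 67.1 and 51.2 normalised FPKM in TPR A libraries (log2 change 1.08 ± 0.20, SE, adjusted p = 0.00751 in limma). Its call was lost when Control replicate 1 (adjusted p = 0.0599) or TPR A replicate 2 (0.0677) was left out.

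The genes that were lower formed no single family. TMEM71 stood at 2.42, 2.05 and 3.90 normalised FPKM in control and at 0.575, 0.441 and 0.376 in TPR A libraries, a log2 change of -2.32 ± 0.32 (SE, adjusted p = 0.000802 in limma). TSPYL4, an intronless gene, fell from 7.17, 7.83 and 10.9 to 3.35, 2.58 and 2.63 (log2 change -1.55 ± 0.23, SE). MROH6 fell from 6.63, 10.6 and 6.17 to 2.20, 2.36 and 2.59 (log2 change -1.63 ± 0.26, SE). These 3 genes, like TPR itself, were called whichever of the 6 cultures was left out. TMX3, which encodes a membrane-bound disulfide isomerase of the ER, had 3 TPR A libraries well below the controls. Its values were 39.6, 42.1 and 51.3 in control and 16.1, 10.7 and 11.9 in TPR A libraries (log2 change -1.79 ± 0.34, SE, adjusted p = 0.00994 in limma). That call was lost only without TPR A replicate 2, at an adjusted p of 0.0654.

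TMEM158, a gene induced by Ras, and ITGA2, the integrin subunit that pairs in a collagen receptor, fell by 1.89 and 1.75 on the log2 scale with all libraries and by 2.32 and 2.0 without Control replicate 2. Both lost their calls when Control replicate 1 was left out (adjusted p = 0.105 and 0.183) or TPR A replicate 1 or 2 was (0.0782 to 0.233), and ITGA2 also without Control replicate 3 (0.0709) or TPR A replicate 3 (0.0504). ADGRL4, COL4A5, DPY19L3 and SMIM10 fell by 1.72 to 2.02 with all libraries, and none of the 4 passed the threshold without Control replicate 2 (adjusted p = 0.0868 to 0.159) or without TPR A replicate 2 (0.116 to 0.364). C4A and C4B, the near-identical complement genes whose reads cannot be told apart with certainty, had 36.2, 4.95 and 9.18 and 30.5, 3.60 and 12.6 normalised FPKM in control and 1.71 to 3.27 in TPR A libraries. C4A passed the threshold in both fits and C4B only without Control replicate 2 (adjusted p = 0.00973 in limma). The C4A call was lost without Control replicate 1 (adjusted p = 0.146), the library with the highest value, and without each of the TPR A cultures (0.126 to 0.233).

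CLNS1A, TMX1, RAD23B and PARP1 were picked out after their values were seen. CLNS1A, a subunit of the complex that methylates spliceosomal Sm proteins, was the most tightly grouped of them, with 122, 120 and 122 normalised FPKM in control and 67, 67.9 and 68.6 in TPR A libraries (log2 change -0.84 ± 0.16, SE, adjusted p = 0.0101 in limma, and 0.0215 without Control replicate 2). CLNS1A was called in 2 of the 6 fits that left out a culture, with an adjusted p of up to 0.105. TMX1, a relative of TMX3, had 35, 51.3 and 28.2 in control and 19.3, 10.4 and 11.9 in TPR A libraries, and RAD23B, a gene of DNA repair and proteasome delivery, had 83.1, 136 and 76 against 54.5, 37.7 and 40.4. Control replicate 2 was the highest library in TMX1 and RAD23B, and neither was called without it (adjusted p = 0.201 and 0.206). TMX1 was called in 0 and RAD23B in 2 of those 6 fits. PARP1, which encodes the poly(ADP-ribose) polymerase, was called only without it (adjusted p = 0.0456).

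**Figure D3:**
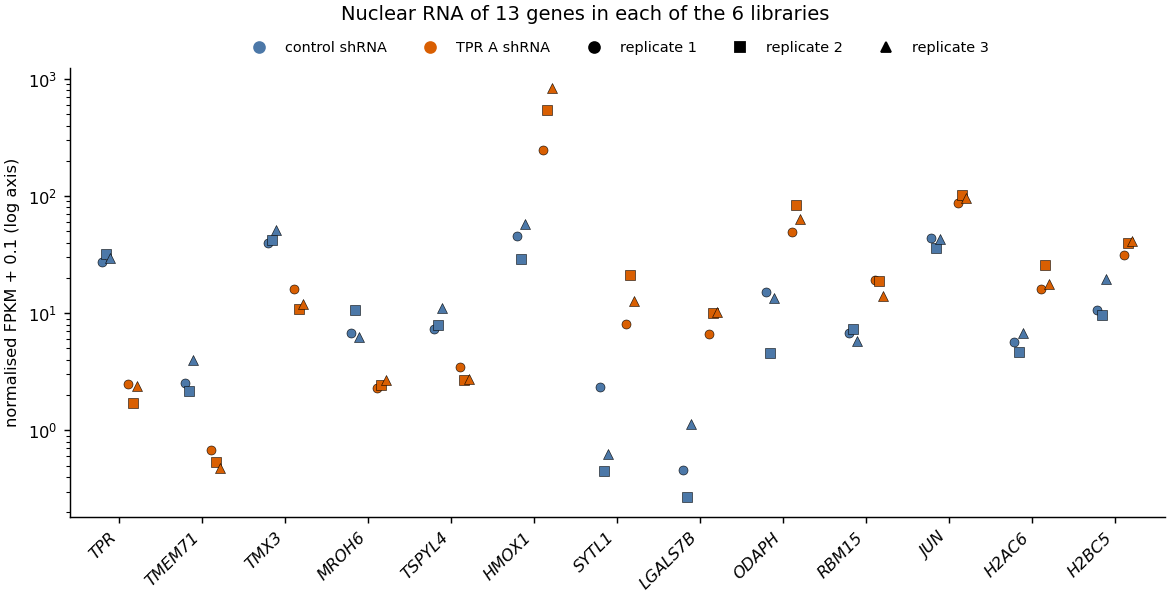
Normalised FPKM + 0.1 of 13 genes in nuclear RNA are drawn on a log axis, 1 symbol for each library, with control shRNA in blue, TPR A shRNA in orange and the replicate number as the shape. In each gene the 3 TPR A libraries lie on one side of the 3 control libraries, below them for TPR, TMEM71, TMX3, MROH6 and TSPYL4 and above them for the other 8 genes.

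Of the 17 genes that passed the threshold only once Control replicate 2 was left out, PLAU and METTL7A had their lowest control value in that library. PLAU, which encodes the urokinase protease, had 39.7 normalised FPKM in that library and 120 and 149 in the other controls, against 45.3, 49.97 and 44.4 in TPR A libraries. Its log2 change was -0.94 with all libraries (adjusted p = 0.237 in limma) and -1.52 without that culture (adjusted p = 0.00105). METTL7A, a gene of a membrane-bound methyltransferase-like protein, had 3.35, 1.14 and 4.75 in control and 0.653, 0.332 and 0.648 in TPR A libraries, and was called only without it (adjusted p = 0.00671). MUC1, a membrane mucin gene, was called in both fits, at -1.48 and at -1.93, and lost its call without any other culture (adjusted p = 0.0712 to 0.208).

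Replication-dependent histone genes encode the core and linker histones of S phase, lie in clusters and mostly lack introns, and their mRNAs end in a conserved stem-loop in place of a poly(A) tail. The libraries were made from poly(A)+ RNA. All 23 of these genes that were tested had a log2 change above 0, with a median of 1.35 beside -0.01 over all genes. Of these, 6 were called higher and none lower, which is 26.1% against 0.575% of all genes. The list was matched by symbol. Of the genes tested, 410 had no annotation, and 4 of those were called higher. Any histone genes among these 410 are not counted here. The stem-loops of the 6 called genes, all in the cluster on chromosome 6, are shown because they are a feature of genes of that class. They were read from GRCh37 on the gene's strand, 5′ to 3′, with the stretch that matched GGNNCTTTTNNGNNCC (N for any base, searched on the gene's strand only) in capitals.
H2AC6 (chr6:26124891-26124918, plus strand): cccaaaGGCTCTTTTCAGAGCCccccta
H2BC4 (chr6:26123694-26123721, minus strand): cccaaaGGCTCTTTTAAGAGCCacccag
H2BC5 (chr6:26158809-26158836, plus strand): cccaaaGGCTCTTTTAAGAGCCacgcat
H3C4 (chr6:26197012-26197038, minus strand): cccaaaGGCTCTTTTCAGAGCCaacca
H4C8 (chr6:26285353-26285380, minus strand): accaaaGGCCCTTTTCAGGGCCgcccac
HIST1H4B (chr6:26027124-26027150, minus strand): tccaatGGCCCTTTTCAGGGCCgccca

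All 23 histone genes held this pattern in an annotated transcript, as did 91 of 12333 protein-coding genes tested, 0.738%. The 68 genes with the pattern that were not on the histone list held no gene called higher. The match is a description of the letters and does not show that the 3′ end is used. Of the 23 histone genes, 17 had 1 exon as the median over annotated transcripts, and H2AC6, H2BC4 and H2BC5 were not among them. Whether the RNA counted for these genes held the stem-loop was not tested.

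Levels of the 6 called histone genes were low. H2AC6, an H2A gene, had 5.56, 4.6 and 6.69 normalised FPKM in control and 15.9, 25.7 and 17.8 in TPR A libraries (log2 change 1.78 ± 0.27, SE, adjusted p = 0.00221 in limma). H2BC5, an H2B gene, had 10.6, 9.49 and 19.4 in control and 31.2, 39.8 and 41.4 in TPR A libraries (log2 change 1.57 ± 0.23, SE, adjusted p = 0.00195 in limma). Both were called whichever culture was left out. Their neighbour H2BC4 stood at 3.37, 2.78 and 1.89 in control and at 6.89, 6.71 and 6.76 in TPR A libraries. Its call was lost without Control replicate 2 (adjusted p = 0.0512) and without each other culture except Control replicate 1 (0.0549 to 0.0813).

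HIST1H4B was listed at 0, 0.185 and 0 in control and at 2.75, 2.93 and 1.18 in TPR A libraries, so that its fitted log2 change of 3.98 depends on the 0.1 added. It stayed called without Control replicate 2 (adjusted p = 0.0429) and was lost without any of the other 5 cultures (0.0527 to 0.208). H3C4 and H4C8 rose by 2.60 and 1.64 and lost their calls without Control replicate 2 (adjusted p = 0.155 and 0.135). H4C8 was called in none of the 6 fits that left out a culture (adjusted p up to 0.169) and H3C4 in 1 (up to 0.289). With that culture left out, 3 of the 23 genes were called and the median was 1.10. The most abundant members did not pass the threshold. H2BC12 had 237, 174 and 149 in control and 281, 387 and 243 in TPR A libraries, and H1-2 had 58.1, 28.0 and 95.1 against 123, 192 and 172 (adjusted p = 0.0602 in limma). H1-1, a linker histone gene, had 0.668, 0.225 and 0.189 in control and 1.96, 2.87 and 0.520 in TPR A libraries, with overlapping groups (adjusted p = 0.462 in limma).

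In 16 of the 23 genes TPR A replicate 3 was the lowest of the TPR A libraries, a place it held in 28.9% of all genes. The median deviation of the list from the control mean was 1.37, 1.48 and 0.57 in TPR A replicates 1, 2 and 3, and -0.22 to 0.36 in the control libraries. In the other fractions of the same cultures the median TPR A change was 0.53 in cytoplasmic/ER and 1.13 in total RNA. With TPR D, which shares the control libraries, the nuclear median was 1.21. Many of these genes are near-identical copies, so that single histone values are uncertain.

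**Figure D4:**
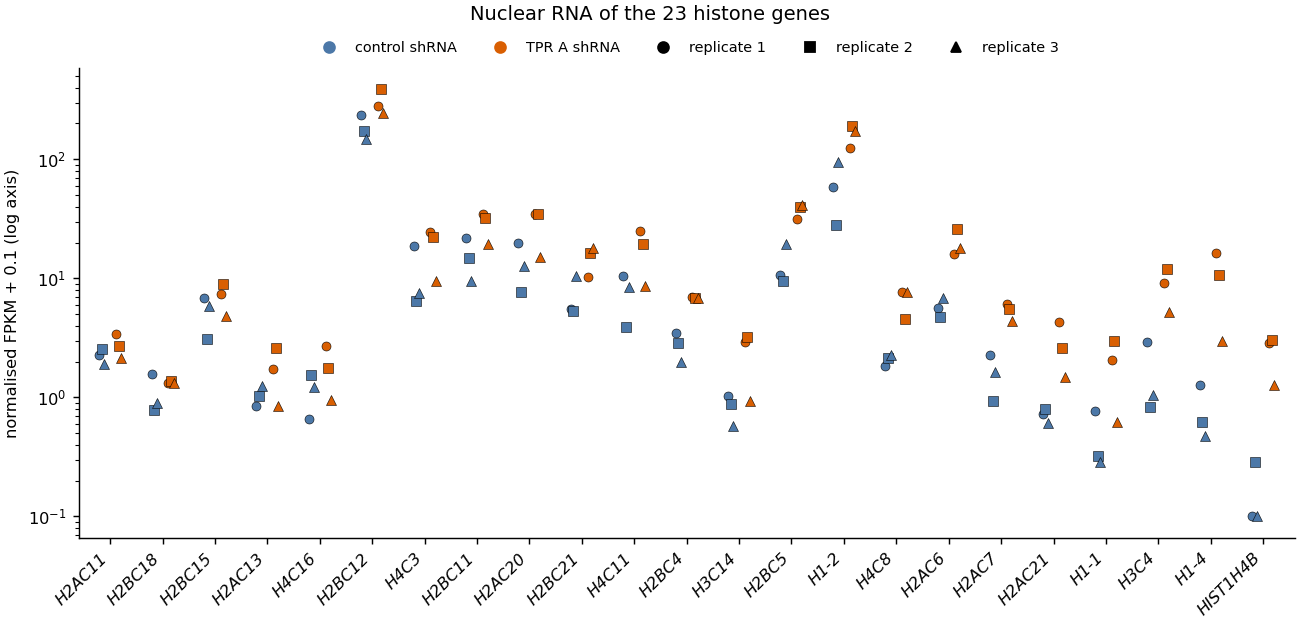
Normalised FPKM + 0.1 of the 23 replication-dependent histone genes in nuclear RNA are drawn on a log axis in order of their log2 change, 1 symbol for each library. Orange TPR A symbols lie above the blue control symbols without overlap in 11 of the 23 genes (47.8%, beside 8.16% of all genes). The orange triangle, TPR A replicate 3, is the lowest orange symbol in 16.

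The proximal promoters of the 2 histone genes with the firmest calls are shown, as the 120 bases before the start in the RefSeq table for GRCh38.p14, with 3 motifs in capitals, searched on both strands (TATAAA, the TATA box, CCAAT, which reads ATTGG on the other strand, and ATTTGC, the core of the octamer). No matches overlap in these promoters.
H2AC6 (chr6:26124052-26124171, plus strand): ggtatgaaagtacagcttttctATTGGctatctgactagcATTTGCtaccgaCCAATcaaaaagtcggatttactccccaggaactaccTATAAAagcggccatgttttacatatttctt
H2BC5 (chr6:26158001-26158120, plus strand): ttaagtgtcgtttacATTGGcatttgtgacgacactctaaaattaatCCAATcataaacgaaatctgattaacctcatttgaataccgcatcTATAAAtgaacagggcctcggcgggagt

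Of 21 promoters of the tested histone genes found in that table, 13 held TATAAA, 18 held CCAAT and 8 held ATTTGC. Among all 27305 promoters of the table the shares were 6.01%, 21.2% and 4.29%. A match is no evidence that a factor was bound.

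No gene of the cell cycle or p53 lists was called, beside 0.575% called higher and 0.329% called lower over all genes. Of 31 genes of G2 and mitosis, 3 had a log2 change above 0, the median was -0.42, and the TPR A libraries lay below the controls without overlap in 17, against 9.01% of all genes. MKI67, the proliferation antigen, had 51.9, 49.9 and 35.8 normalised FPKM in control and 24.8, 24.9 and 29.8 in TPR A libraries (adjusted p = 0.308 in limma). Without Control replicate 2 the median was -0.52. From the mean of all 3 controls, that library included, the 3 TPR A libraries deviated alike, by -0.45, -0.46 and -0.47. Of 28 S-phase genes none was called, and their median was -0.08 (-0.11 without Control replicate 2). Of 23 p53 targets, 21 had a change above 0, with a median of 0.29 (0.21 without Control replicate 2), and none was called. In 1 of them (4.35%, beside 8.16% of all genes) the TPR A libraries lay above the controls without overlap. CDKN1A, the gene of the p21 inhibitor, had 128, 85.4 and 208 in control and 192, 247 and 255 in TPR A libraries, with overlapping groups (adjusted p = 0.283 in limma).

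Of 34 genes of the nuclear basket and pore, TPR was the only one called in either fit, and the median of the list was -0.13 (-0.17 without Control replicate 2). NUP153, which encodes a second protein of the basket, had 16.7, 17.0 and 13.9 in control and 13.7, 14.1 and 16.3 normalised FPKM in TPR A libraries. NUP54, a gene of the central channel, had 55.4, 53 and 50.1 in control and 34.4, 30.7 and 32.3 in TPR A libraries without overlap, but missed the threshold (adjusted p = 0.0761 in limma). None of 16 genes of SR proteins and CLK kinases, 16 heat-shock genes, 19 ATF4 targets, 18 genes of the unfolded protein response or 20 interferon-stimulated genes was called. Over all genes 0.575% were called higher and 0.329% lower, so 0 calls in lists of this size is near that share. The TPR A libraries lay above the controls without overlap in 6 ATF4 targets (31.6%, beside 8.16% of all genes) and below in 0. In the other lists 1 interferon-stimulated gene lay above. Below lay 1 gene each of the interferon, unfolded protein and SR and CLK lists.

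Of 408 ZNF genes, which encode zinc finger proteins, ZNF416 was called higher (log2 change 0.98, adjusted p = 0.0399 in limma) and ZNF438 lower (-0.81, adjusted p = 0.0232), and only ZNF438 was called without Control replicate 2. Without any other culture ZNF438 lost its call (adjusted p = 0.0721 to 0.208), and ZNF416 was called in 0 of the 6 fits that left out a culture. The TPR A libraries lay above the controls without overlap in 16.2% of these genes, beside 8.16% of all genes. Of 360 antisense lncRNAs, MMP20-AS1 was called higher with all libraries (2.15, adjusted p = 0.0196) and not without Control replicate 2 (adjusted p = 0.143), Control replicate 1 or TPR A replicates 1 or 2 (0.0527 to 0.180). Of the 8 markers of other cell types, 2 were at a mean above 1 FPKM, EPCAM at 3.37 to 5.32 and KRT18, and neither was called. Summed over both genes the level was 368, 184 and 409 normalised FPKM in control and 218, 475 and 491 in TPR A libraries. Most of that sum was KRT18, an epithelial marker.

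Several list medians differed with and without Control replicate 2. The median change of 20 collagen and matrix genes was 0.30 with all libraries and -0.23 without Control replicate 2, that of 18 glycolysis genes 0.22 and -0.01, and that of 20 cytoskeleton genes 0.11 and -0.13. In the Control replicate 2 library these lists deviated from the control mean by -0.73, -0.52 and -0.45, and in the other 2 controls by 0.20 to 0.47. The 5 lncRNAs of the nuclear-retained list that were tested stood higher in that library instead (0.76). MALAT1 had 21.3, 82.9 and 39.5 normalised FPKM in control and 23, 16 and 25 in TPR A libraries, and NEAT1 had 20.9, 69.1 and 66.1 against 29.5, 31.2 and 27.2. Neither was called. NORAD, a cytoplasmic lncRNA of 1 exon, had 28.7, 46.4 and 30.7 in control and 20.7, 14.5 and 19 in TPR A libraries without overlap, and was not called (adjusted p = 0.241 in limma). GAPDH overlapped between the groups, with a log2 change of 0.06 ± 0.35 (SE).

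The 85 genes of cytosolic ribosomal proteins had a median of 0.21 and the 80 nuclear-encoded genes of the respiratory chain one of 0.30. No gene of either list was called, beside 0.575% called higher and 0.329% called lower over all genes. Without Control replicate 2 the medians were 0.16 and 0.20. The median of the respiratory chain genes was 0.35, 0.46 and 0.12 in TPR A replicates 1, 2 and 3. In the cytoplasmic/ER fraction the medians of both lists were -0.21.

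Transcript length and exon number went with the nuclear change only weakly. Among protein-coding genes, the 1597 with a pre-mRNA of up to 5 kb had a median log2 change of 0.13 and the 1547 with one over 100 kb a median of -0.13. Without Control replicate 2 these medians were 0.04 and -0.08. In that library the 2 bins deviated by -0.22 and 0.10 from the control mean, and among the TPR A libraries replicate 2 showed the widest spread (0.28 and -0.23). By exon number the median ran from 0.10 for over 1 to 3 exons to -0.11 for over 10 exons, and from 0.08 to -0.13 without Control replicate 2. The 201 intronless mRNAs had a median of 0.05 with all libraries and of -0.03 without that culture. Of these, 6 were called higher (2.99%, beside 0.575% of all genes) and 5 lower (2.49%, beside 0.329%), and 4 and 3 were without that culture. The 6 higher ones were the histone genes H4C8, H3C4 and HIST1H4B, and RAP2B, JUN and HRCT1. Across 12381 protein-coding genes of these libraries, Spearman's rho of the change was -0.19 with the number of exons and -0.22 with pre-mRNA length, and without that culture these were -0.22 and -0.10. Genes are not independent replicates, and within single TPR A libraries rho with the number of exons ran from -0.29 to -0.03.

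Whether a change was confined to the nuclear fraction was asked by testing the nuclear change against the change in the other fractions of the same cultures. No gene passed the threshold for the nuclear minus the cytoplasmic/ER change, with 215 genes at an unadjusted p under 0.05 in limma and a lowest adjusted p of 0.392. None passed for the nuclear minus the total change either (227 genes at an unadjusted p under 0.05 in limma, lowest adjusted p 0.911). These tests did not use the pairing of fractions within cultures. With culture as a block no gene passed in limma either. For cytoplasmic/ER, 394 genes then had an unadjusted p under 0.05 and the lowest adjusted p was 0.0797, and for total 402 and 0.788. The median SE of a difference was 0.42 without the block, so 0 calls do not show that fractions changed alike. Without Control replicate 2 the first test called 0 genes (104 at an unadjusted p under 0.05 in limma) and the second called GAGE2E, a member of a family of near-identical copies, with a difference below 0. All 84 higher genes had a change above 0 in total RNA, and 83 did in cytoplasmic/ER RNA. All 48 lower genes were below 0 in both. At the threshold, 52 of the 132 were called in the same direction in total RNA (39.4% of the nuclear calls and 43.3% of the total calls) and 49 in cytoplasmic/ER RNA (37.1% and 53.8%). The background in those fractions was 0.821% and 0.623% of all genes, or 120 and 91 genes, and without Control replicate 2 it was 41 and 83 genes.

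The genes called in nuclear RNA and in neither other fraction numbered 43 higher and 23 lower. Their median changes were 1.48 and -1.16 in nuclear RNA, 0.93 and -0.83 in total RNA, and 0.85 and -0.71 in cytoplasmic/ER RNA. They moved in the same direction in both other fractions in 42 of 43 and 23 of 23 genes. Since they were chosen by their nuclear calls, a larger nuclear value is built in. HIST1H4B had the widest gap among the named genes, with a log2 change of 3.98 in nuclear, 0.12 in cytoplasmic/ER and 1.13 in total RNA, and its difference from cytoplasmic/ER RNA did not pass the threshold (unadjusted p = 0.00440, adjusted p = 0.987 in limma). LINC01119, a lncRNA, was close to 0 in the other fractions (0.01 and 0.08) and 2.30 in nuclear RNA. It was called only without Control replicate 2. Its levels were 0, 0.748 and 0.378 in control and 1.74, 1.74 and 1.33 normalised FPKM in TPR A libraries.

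**Figure D5:**
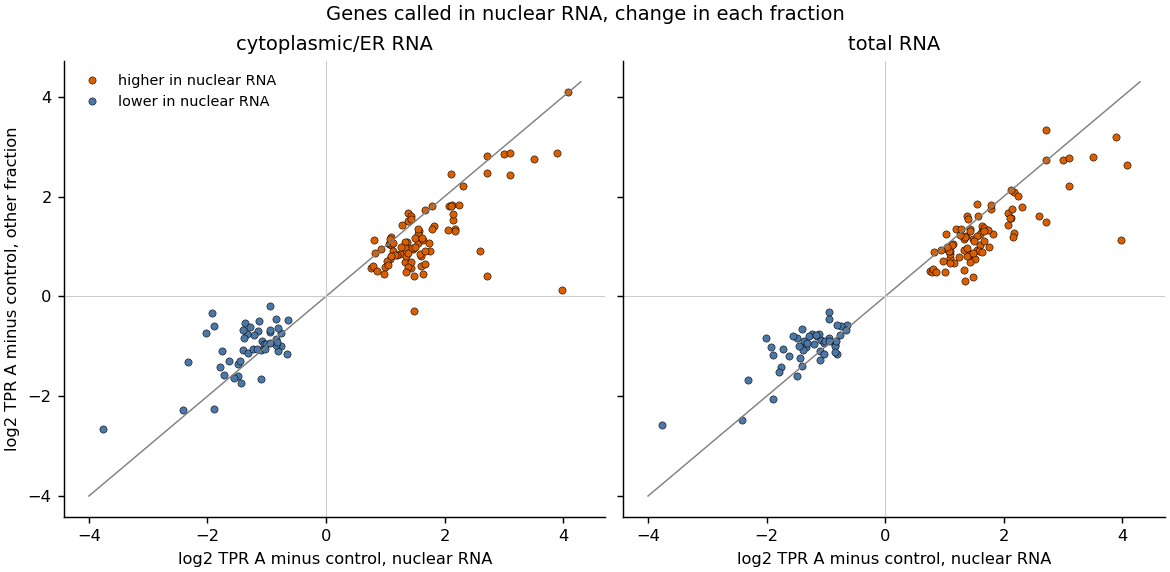
The log2 change (TPR A minus control) of the 132 genes called in nuclear RNA is plotted on the horizontal axis against their change in cytoplasmic/ER RNA (left) and total RNA (right), with genes higher in nuclear RNA in orange and lower ones in blue. The grey line marks equal change, and 1 orange gene lies below 0 in the left panel.

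A second shRNA allowed the nuclear libraries of TPR A and TPR D to be compared directly, without the control libraries in the difference. By limma, 33 genes had more and 13 had less RNA in TPR A than in TPR D libraries, 0.315% of the genes tested. Libraries of these 2 shRNAs with the same number deviated together, and a fit blocked on that number called 117 higher and 89 lower genes. Without Control replicate 2 in the unblocked model the counts were 67 and 31. With only the 9 nuclear libraries in the unblocked model, SLC17A7 and PDLIM1 were the only genes called. HMOX1 was among the 46 genes. It stood at 76.3, 68.9 and 79.8 normalised FPKM in TPR D libraries, against 245, 546 and 829 with TPR A (log2 difference 2.68 ± 0.36, SE, adjusted p = 0.000959 in limma). LCTL had 7.75, 9.76 and 8.31 with TPR D (adjusted p of the difference = 0.0101 in limma). RBM15, at 17.2, 18.2 and 15.4 with TPR D, and MROH6, at 2.36, 2.20 and 2.52, were at the TPR A level, with a log2 difference of 0.02 ± 0.21 and 0.01 ± 0.26 (SE).

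Of the 132 genes called for TPR A, 7 higher and 9 lower ones differed from TPR D at the threshold. The higher genes had a median change of 1.49 with TPR A and of 0.89 with TPR D, and the lower genes of -1.22 and -0.42. Since they were chosen by their TPR A calls, a larger TPR A median is built in. TMX3 had 37.2, 28.2 and 42.5 normalised FPKM with TPR D, with groups that overlapped the controls. Its difference between the shRNAs missed the threshold (log2 -1.48 ± 0.34, SE, adjusted p = 0.0594 in limma) and passed it with the replicate block (adjusted p = 0.00725). The block also brought SYTL1 (0.0328), SPINK6 (0.0166), GPC6 (0.0215), ZNF438 (0.0300) and H2AC6 (0.0416) past the threshold. With only the 9 nuclear libraries in the model, the same block called 0 genes in limma (lowest adjusted p 0.0640, 1372 genes at an unadjusted p under 0.05). PTPMT1, which encodes a phosphatase of cardiolipin synthesis, and GPAT3, which encodes an acyltransferase of lipid synthesis, were picked out after their values were seen. PTPMT1 had 43.0, 61.9 and 30.8 in control, 22.3, 15.5 and 11.9 with TPR A and 42.2, 51.7 and 37.8 with TPR D. GPAT3 had 13.2, 9.78 and 10.5 in control, 5.95, 5.12 and 4.99 with TPR A and 15.7, 18.4 and 13.1 with TPR D. In both genes the TPR D libraries overlapped the controls and the TPR A libraries lay below.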

How the data were processed

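The authors quantified reads of poly(A)+ RNA with Salmon on Gencode v.19 protein-coding and lncRNA transcripts (hg19), summed them to genes with tximport and deposited FPKM, the only values used. The FPKM summed to 746466 to 2063355 per library, and whether they had been scaled between libraries before deposit is not given in the sources used here. Read counts were not used here, so no count model was run. FPKM of 27 libraries were divided by median-of-ratios factors (0.954 to 1.06), 0.1 was added and log2 was taken. In text these are called normalised FPKM. limma 3.58.1 in R 4.3.3 (trended variance, 9 groups, Benjamini-Hochberg over 14611 genes, threshold 0.05) gave fold changes, and a fold change on this scale understates the change of low genes. In simulated nuclear data of 14611 genes it recovered 93 of 100 log2 changes of 2 and 92 of 100 of 3. There were 4 false calls, and smaller changes were not simulated. Libraries were simulated as independent, with normal spread and none against its label, so this does not measure false calls in these data. IDs were matched to GENCODE v44 on GRCh37 (32776 matched, 1688 not). The depth came from the steps of low values, of which 87.9% to 88.8% lay within 0.1 of a whole read. Deviations of same-numbered nuclear libraries from their group means correlated by -0.06, -0.26 and 0.25 between control and TPR A and by 0.13 to 0.27 between TPR A and TPR D. The members and gene lists were chosen with earlier results of these data known. Genes named were TPR, up to 12 called genes with the largest change in each direction, up to 8 more without Control replicate 2, called and most abundant members of the lists, calls of the interactions, and NORAD, H1-1, GAPDH, MALAT1 and NEAT1. Alternatives were other scalings, pseudocounts (1 and 0.01), minimum levels, samples, blocks and variance models. Figures were drawn with matplotlib 3.10.9.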

Additional observations from a re-analysis of the deposited data

Results flagged for a closer look

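In 9 of the genes named here the nuclear change with TPR A differed from that with TPR D. This was tested as TPR A minus TPR D in limma, with 3 libraries each and the spread pooled over all 27 libraries. With only the 9 nuclear libraries in the model none of these genes was called, and with Control 2 also left out GPAT3 was. ENSG00000227136 may have passed the minimum level only through the TPR A cultures. The log2 difference was 2.68 for HMOX1, 2.02 for IGFL3 (adjusted p = 0.0377), -1.78 for TMEM71 (adjusted p = 0.0148) and -1.42 for ITPR1 (adjusted p = 0.0315). Among genes picked out after their values were seen it was 1.24 for LCTL (adjusted p = 0.0101), 3.20 for ENSG00000227136 (0.00175), -1.53 for GPAT3 (0.000959), -1.43 for PTPMT1 (0.0175) and -0.74 for CLNS1A (0.0407). IGFL3 had 68.4, 60.6 and 39.9 normalised FPKM with TPR A and 9.92, 18.1 and 13.7 with TPR D. TMEM71 had 0.575, 0.441 and 0.376 with TPR A and 1.96, 1.78 and 1.72 with TPR D. ITPR1, which encodes a calcium channel of the ER, had 2.35, 2.12 and 4.06 with TPR A and 7.52, 6.20 and 8.97 with TPR D. In IGFL3, TMEM71 and ITPR1 the libraries of the 2 shRNAs did not overlap.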

How the results depend on the processing

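Of the nuclear count of 132 genes (84 higher, 48 lower), 73 were left with a minimum mean of 5 FPKM, 62 without the nuclear library labelled Control 2 alone, 3 with only the 6 nuclear libraries in the model, 17 with only the 9 nuclear libraries and 24 with those 9 less Control 2. Array weights, whose fit did not converge, gave 953. Replicates 2 and 3 only, whose column names share a tag that replicate 1 lacks, gave 5 (TPR, HMOX1, VAMP8, RBP4 and SYTL1). Leaving out each culture in turn gave 14 to 170. Blocking on the replicate number, which did not pair control with TPR A libraries, gave 375 (229 higher, 146 lower), 261 with Control 2 also left out, and 4 with only the 9 nuclear libraries. Upper-quartile scaling gave 95 higher and 34 lower genes, a share of higher calls of 73.6% against 63.6%. The nuclear minus cytoplasmic/ER change gave 1 gene with a pseudocount of 1 (TPR) and 0 to 1 genes when cultures were left out (SLC5A3 without Control replicate 3). The nuclear minus total change gave 2 with no minimum level, 2 with array weights (KCNQ5 and GAGE2E), 1 in the replicate block with Control 2 left out, and 0 to 1 with cultures left out (GAGE2E without Control replicate 2). TPR A minus TPR D, 46 genes, gave 85 with no minimum, 71 without a trend, 1416 with array weights, 2 with only the 9 nuclear libraries, 5 with those less Control 2, 2 from replicates 2 and 3 only, and 8 to 98 with cultures left out. Its replicate block gave 206, 444 with Control 2 left out, and 0 in limma with only the 9 nuclear libraries (1372 genes at an unadjusted p under 0.05). The sign of GAPDH turned without Control replicate 2 (-0.29), without that nuclear library alone (-0.29), also among the 9 nuclear libraries (-0.29), in the block without it (-0.46), and without TPR A replicate 2 (-0.08) or 3 (-0.02), and was 0.28 without TPR A replicate 1. The causes were not tested. TPR passed the threshold in every setting run. The small groups of 3 libraries, with Control replicate 2 against its label, limit the precision, and low genes rest on few reads.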
